A study of Homo sapiens with 18 samples.

Results

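The subject here is the NRF2 antioxidant pathway in HEK-293E cells, a line derived from human embryonic kidney. It was followed as 10 genes matched by symbol and chosen with earlier results of these data known. They were NFE2L2, which encodes the transcription factor NRF2, its inhibitor KEAP1, and 8 genes widely described as NRF2 targets (NQO1, GCLC, GCLM, HMOX1, TXNRD1, SRXN1, TXN and ME1). The gene table held 60623 genes, and all 10 were among the 16414 genes with enough counts to be tested. RNA sequencing covered 18 libraries in 6 groups of 3. Every culture was first kept overnight in medium with 0.1% serum. Starved cells were collected in that state, 1 h fed and 4 h fed cells were returned to regular growth medium with 10% serum for 1 h or 4 h, and each of these 3 states was also sampled with Torin1, a small molecule that blocks the kinase mTOR in both of its complexes. The sources used here give neither the dose of Torin1 nor the time it was present. They also do not say whether a group's 3 libraries were grown separately, so a p-value covers library-to-library spread, which may be technical.

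NRF2 is a transcription factor of the cap'n'collar family that is made continuously and, in unstressed cells, destroyed nearly as fast. KEAP1 holds it in the cytoplasm and, as the adaptor of an E3 ligase built on CUL3, marks it for the proteasome. Reactive chemicals modify cysteines of KEAP1, NRF2 then escapes, pairs with a small MAF protein and binds antioxidant response elements in the promoters and enhancers of its targets. Those targets supply glutathione (GCLC and GCLM), keep protein thiols reduced (TXN, TXNRD1 and SRXN1), reduce quinones (NQO1), break down haem (HMOX1) and make NADPH (ME1). The autophagy receptor p62, encoded by SQSTM1, competes with NRF2 for KEAP1, which is one known link between this pathway and mTOR. Much of NRF2's control acts on the protein, which RNA levels do not show.

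The promoters were read from RefSeq (build GRCh38.p14) as windows of 300 bases, 250 before a start site and 50 from it, and 9 of the 10 genes had at least 1 window, 12 in all. HMOX1 had no entry. The core of the antioxidant response element, TGACNNNGC on either strand, was found in 5 of the 12 windows, which belonged to KEAP1, GCLM, TXNRD1 and ME1, and in 13.3% of the 35116 windows of all genes. In the windows of NFE2L2, NQO1, GCLC, SRXN1 and TXN these letters did not occur, which says nothing of elements farther away. GCLM, TXNRD1 and ME1 hold the core and were lower with Torin1 in all 3 feeding states. SRXN1 and TXN were also lower in all 3, without these letters in their windows. KEAP1, which holds the core, was lower with Torin1 in 4 h fed cells only. A link between the core and Torin1 was not tested. Stretches of GCLM and ME1 are shown as examples. Each runs 5′ to 3′ along the gene from 150 to 26 bases before its RefSeq start, with matches to the core in capitals (chr1:93909456-93909580, minus strand, for GCLM, and chr6:83431077-83431201, minus strand, for ME1).
GCLM: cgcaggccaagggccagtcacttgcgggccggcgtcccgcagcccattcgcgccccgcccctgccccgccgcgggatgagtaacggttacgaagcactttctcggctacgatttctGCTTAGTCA
ME1: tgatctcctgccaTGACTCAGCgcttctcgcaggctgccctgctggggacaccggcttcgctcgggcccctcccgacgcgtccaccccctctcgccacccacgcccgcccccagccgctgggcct

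In GCLM the match lay on the opposite strand, 34 to 26 bases before the start, with the same 9 letters, GCTTAGTCA, as a match 31 to 23 bases before a start of KEAP1. KEAP1 held another match, TGACACGGC, 54 to 46 bases before that start. That RefSeq start lies 125 bases downstream of the annotated start of the isoform KEAP1-202, so both matches fall downstream of where that isoform begins. ME1 also held GCACCGTCA on the opposite strand, 11 to 19 bases after its start and outside the stretch shown. TXNRD1 had windows at 2 RefSeq starts. Its main isoforms, TXNRD1-205 and TXNRD1-214, start 70903 and 71102 bases downstream of the first, which held TGACTTCGC and GCTCCGTCA, and 350 and 151 bases upstream of the second. The window at the second start held GCTTTGTCA, 102 to 94 bases before it and so downstream of where both isoforms begin. The core bound by C/EBP-ATF dimers such as those of ATF4, TGATGNAA on either strand, occurred in 0 of the 12 windows and in 3.62% of all windows. A match of letters is a description of the sequence and was not tested for binding.

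Library totals ran from 10510689 to 13690035 counts. Levels are given in CPM, a gene's share of its library's counts after edgeR's TMM scaling, which trims extreme genes before matching libraries. Each is thus relative to the rest of the RNA, and a level that falls may reflect less RNA of that gene per cell or fewer cells that carry it, which cannot be told apart in bulk RNA. The lowest count of any of the 10 genes in a library was 31, for NQO1, and a count of 0 would allow up to 0.219 to 0.285 CPM by counting error alone. Of the kidney and HEK-293 markers, SIX2 (48.8 CPM in starved cells) and VIM (631 CPM) were present, PAX2 was at 0.878 CPM, and PAX8 was at 0 in 3 of the 6 groups. The summed level of 8 such markers was 748 to 975 CPM in libraries without Torin1 and 1200 to 1490 CPM with it. In starved cells the sum was 794 to 969 CPM and most of it was VIM, so it says little of the other markers. Summed markers of fibroblasts (8.93 to 44.4 CPM), immune cells (1.23 to 5.61 CPM) and endothelium (0.0918 to 1.75 CPM) were low, and the part of any marker in the results was not tested.

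Per transcript length, TXN, the small thiol reductant thioredoxin, was the most abundant of the 10 genes in starved cells, at 447 ± 18.4 TPM, the share of transcripts after division by length (SD, n = 3). TXNRD1, the cytosolic enzyme that recharges it, followed at 167 ± 7.77 TPM, then SRXN1 at 67.7 ± 3.19 TPM and KEAP1 at 55.4 ± 5.03 TPM. ME1 (25.3 ± 1.32 TPM), NFE2L2 (25.1 ± 2.4 TPM) and GCLM (24.9 ± 1.99 TPM) lay within their spread of each other. HMOX1 stood at 19.2 ± 6.42 TPM, GCLC at 15.6 ± 0.53 TPM, and NQO1 was the lowest, at 5.57 ± 0.999 TPM. KEAP1 RNA was therefore more abundant than that of NFE2L2 by this measure.

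**Figure D1:**
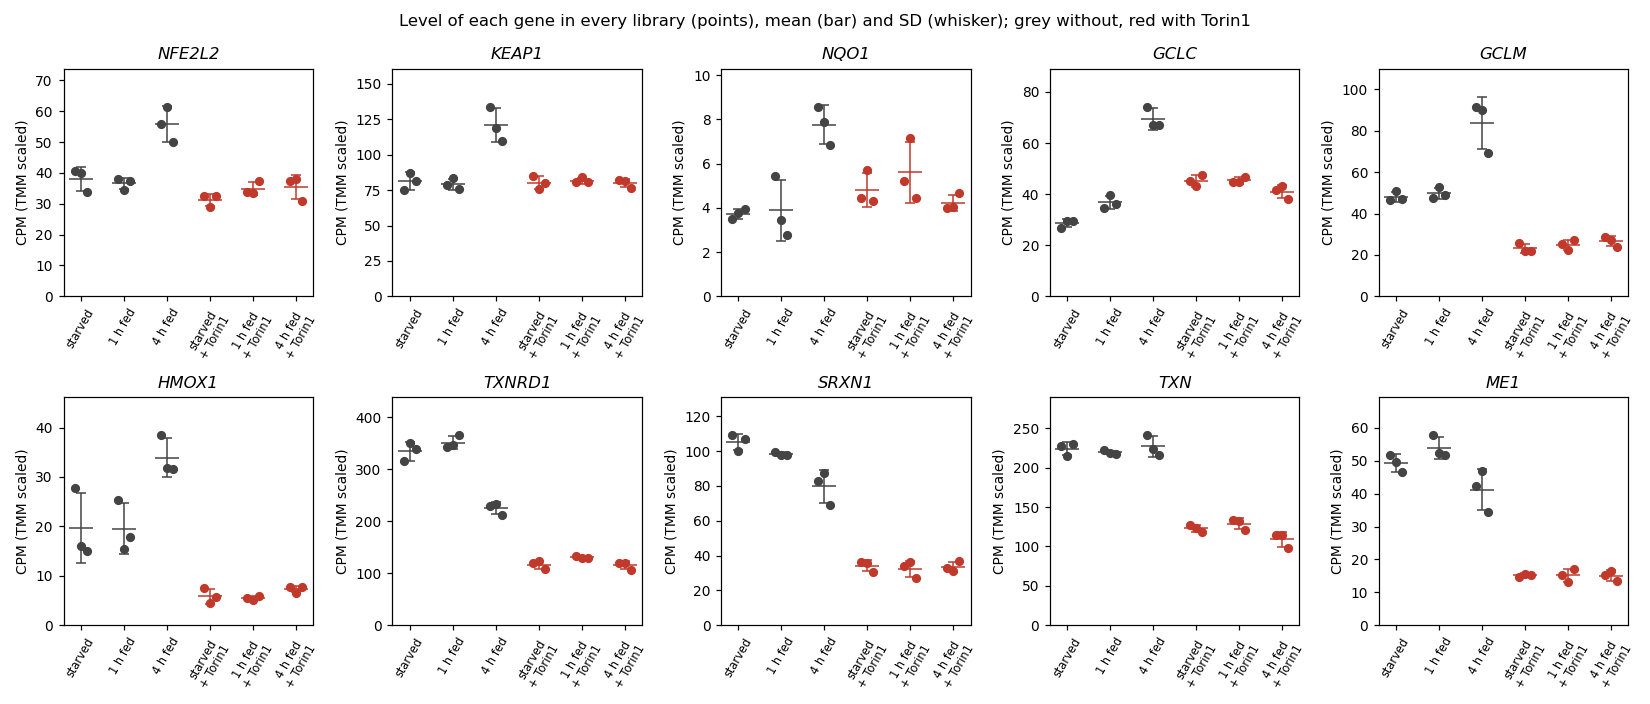
Level of each of the 10 genes in CPM (y axis, from 0, a scale for each gene) in the 6 groups (x axis), with 1 point per library and a bar at the mean of 3. The 4 h fed libraries of GCLC, KEAP1, NFE2L2, GCLM and HMOX1 lie above all others, and GCLM, HMOX1, TXNRD1, SRXN1, TXN and ME1 were lower with Torin1 in every feeding state.

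The comparison of 4 h fed with starved cells asked how the pathway responds to serum and nutrients. NFE2L2, KEAP1 and the genes for both subunits of glutamate-cysteine ligase, NQO1 and HMOX1 were higher in 4 h fed cells, by 1.46-fold to 2.43-fold, and TXNRD1 and SRXN1 were lower. Thus 6 of the 10 genes rose, 2 fell and 2 did not pass the test (edgeR's quasi-likelihood F test, Benjamini-Hochberg adjusted over all 16414 genes, threshold 0.05), with a median log2 change of 0.56. Among all genes tested, 42.3% passed in this comparison, 23.2% as higher and 19.1% as lower, and the median was 0. Libraries of the groups did not overlap for 8 of the 10 genes, against 49% of all genes.

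NFE2L2 was at 40.6, 40.1 and 33.7 CPM in the 3 starved libraries and at 55.8, 61.5 and 49.9 CPM in the 4 h fed libraries. Every 4 h fed library lay above every other library of the series. The log2 change over starved cells was 0.55 (SE 0.11, edgeR adjusted p = 0.000122). Strand use in counting is not given, and annotated exons of NFE2L2 overlap AGPS on the opposite strand, which averaged 93.3 CPM, so reads of the 2 genes could be mixed there.

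KEAP1 behaved alike, at 75.3, 87.4 and 81.6 CPM in starved and 134, 119 and 110 CPM in 4 h fed cells. The lowest 4 h fed library was again above all others of the series. Its log2 change was 0.57 (SE 0.09, edgeR adjusted p = 2.6e-06), so the RNAs of the factor and of its inhibitor rose by nearly the same factor, 1.46-fold and 1.49-fold.

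GCLC encodes the catalytic subunit of glutamate-cysteine ligase, which carries out the rate-limiting step of glutathione synthesis. It was at 26.8, 29.5 and 29.4 CPM in starved cells, at 34.5, 39.7 and 36.1 CPM in 1 h fed cells and at 74.3, 66.9 and 66.9 CPM in 4 h fed cells. The 3 states did not overlap. The rise at 4 h, 2.43-fold or 1.28 on the log2 scale (SE 0.10, edgeR adjusted p = 3.35e-12), was the largest among the 10 genes.

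GCLM, the regulatory subunit that raises the activity of the same enzyme, was at 46.6, 50.9 and 47.0 CPM in starved cells and at 91.7, 90.0 and 69.2 CPM after 4 h. All 4 h fed libraries were higher, although 1 of them lay well below the other 2. The log2 change was 0.80 (SE 0.11, edgeR adjusted p = 5.05e-07).

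NQO1, a quinone reductase that is a standard readout of NRF2 activity, was sparse in these cells. Starved libraries held 3.5, 3.76 and 3.95 CPM and 4 h fed libraries held 8.58, 7.87 and 6.84 CPM. With no overlap between the groups, the log2 change was 1.05 (SE 0.25, edgeR adjusted p = 0.000888). HMOX1 encodes haem oxygenase 1, which frees iron and biliverdin from haem. Its starved libraries were spread, at 27.8, 16 and 15.1 CPM, below 38.4, 31.8 and 31.6 CPM in 4 h fed cells. Replicate 1 was the highest HMOX1 library in 5 of the 6 groups, as it also was for TXN. The log2 change of HMOX1 was 0.80 (SE 0.20, edgeR adjusted p = 0.00203).

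The thioredoxin arm went the other way or did not pass the test. TXNRD1 was at 315, 350 and 338 CPM in starved cells and at 230, 233 and 212 CPM after 4 h, a log2 change of -0.57 (SE 0.07, edgeR adjusted p = 2.12e-07) with separate groups. SRXN1, which restores overoxidised peroxiredoxins, was at 109, 100 and 107 CPM and then 83.1, 87.4 and 69.2 CPM, a log2 change of -0.40 (SE 0.10, edgeR adjusted p = 0.00182). Both genes were therefore lower after 4 h of feeding while GCLC and GCLM were higher. TXN was at 228, 215 and 230 CPM in starved and 241, 224 and 216 CPM in 4 h fed cells, with overlapping libraries and a log2 change of 0.02 (SE 0.08, edgeR adjusted p = 0.865).

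ME1, the cytosolic malic enzyme that makes NADPH, was at 51.8, 49.6 and 46.5 CPM in starved cells and at 42.3, 46.8 and 34.4 CPM after 4 h. The groups overlapped by 1 library, and the log2 change of -0.26 (SE 0.12, edgeR adjusted p = 0.0706) did not pass. It did pass with DESeq2 size factors (-0.30, adjusted p = 0.0341), total counts (adjusted p = 0.0498), DESeq2's Wald test (adjusted p = 0.0315), limma-voom (adjusted p = 0.0424), a minimum count of 30 (adjusted p = 0.0458) and without 4 h fed replicate 2 (adjusted p = 0.0143). Whether ME1 fell with feeding thus depended on the tool and the scaling.

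After 1 h of feeding, 0 of the 10 genes passed the edgeR test, beside 0.646% of all genes (0.481% as higher and 0.164% as lower). Changes lay between -0.10 and 0.36 on the log2 scale with SEs of 0.07 to 0.26 and a median of 0.02. GCLC had the highest of them, 0.36 (SE 0.10, edgeR adjusted p = 0.09), and was the 1 gene of the 10 with an unadjusted p under 0.05. All 3 of its 1 h fed libraries were above all 3 starved libraries. DESeq2's Wald test called it (adjusted p = 0.0379), edgeR called it without 1 h fed replicate 1 (0.41, adjusted p = 0.042), and limma-voom called 0 of the 10 genes.

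**Figure D2:**
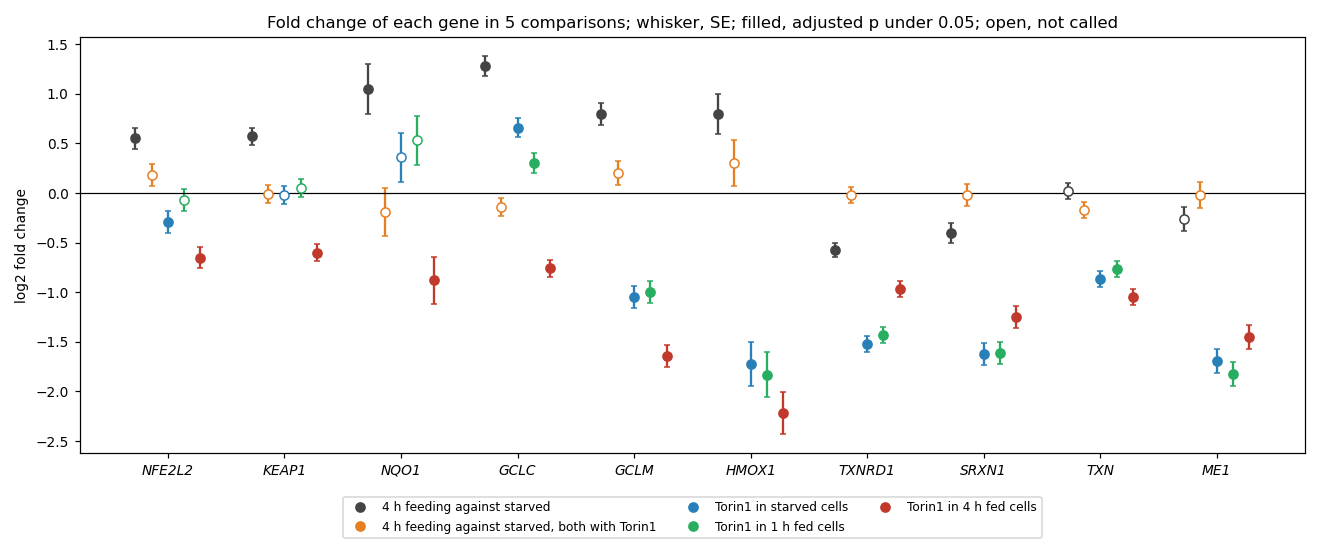
Log2 fold change of each of the 10 genes (points, with bars of 1 SE) in 5 comparisons of feeding and of Torin1 (colours, y axis in log2 units), filled where the edgeR adjusted p was under 0.05. Feeding for 4 h raised 6 genes and lowered 2, whereas Torin1 in 4 h fed cells lowered all 10, from -0.60 for KEAP1 to -2.22 for HMOX1.

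The comparison of Torin1 with no Torin1 in 4 h fed cells asked how the fed level depends on mTOR. All 10 genes fell in this comparison, which shares the 4 h fed libraries with that of feeding, and for all 10 the libraries of the groups did not overlap. Among all genes tested, 56% passed in this comparison, 28.6% as lower, and libraries did not overlap for 60.5%. The median log2 change of the 10 genes was -1.01, beside 0.02 over all genes. The direction of the 10 genes did not depend on scaling, and all 10 also passed with DESeq2 size factors (median -1.01) and with scaling by total counts (median -0.85). Total counts shifted the median of all genes by 0.16 on the log2 scale, and among genes that passed, the share that was higher went from 49% with TMM to 62.6%.

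HMOX1 fell most, from the 4 h fed values given above to 7.69, 6.55 and 7.64 CPM with Torin1. This was 4.64-fold lower, a log2 change of -2.22 (SE 0.21, edgeR adjusted p = 2.22e-09). GCLM fell to 28.9, 27.4 and 24.0 CPM, 3.12-fold lower, at -1.64 on the log2 scale (SE 0.11, edgeR adjusted p = 3.77e-13). These levels were also well under those of starved cells without Torin1 for both genes.

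GCLC, the partner subunit of GCLM, fell less, to 41.5, 43.3 and 38.3 CPM, a log2 change of -0.76 (SE 0.09, edgeR adjusted p = 4.27e-08). Every one of these libraries stayed above the starved libraries without Torin1, so the 2 subunits ended on opposite sides of their starved level. NQO1 went to 3.99, 4.04 and 4.66 CPM, a log2 change of -0.88 (SE 0.24, edgeR adjusted p = 0.00262).

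ME1 was at 15.4, 16.5 and 13.4 CPM with Torin1, 2.73-fold lower than in 4 h fed cells without it (-1.45, SE 0.12, edgeR adjusted p = 3.43e-11). SRXN1 fell 2.37-fold to 33.1, 31.1 and 36.8 CPM, and TXNRD1 fell 1.95-fold to 120, 120 and 107 CPM. TXN, which feeding had not moved past the threshold, was 2.08-fold lower, at 115, 114 and 98.5 CPM (-1.05, SE 0.08, edgeR adjusted p = 1.51e-12). For these 4 genes the Torin1 libraries were also below every starved library without the drug.

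NFE2L2 was at 37.4, 38.0 and 31.0 CPM, a log2 change of -0.65 (SE 0.11, edgeR adjusted p = 6.08e-06), and KEAP1 was at 81.9, 81.7 and 76.5 CPM, a log2 change of -0.60 (SE 0.09, edgeR adjusted p = 6.83e-07). Both levels lay in or next to the range of starved cells. The factor and its inhibitor were thus the 2 genes of the 10 that Torin1 lowered least in 4 h fed cells, by 1.57-fold and 1.51-fold.

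In starved cells Torin1 lowered 7 of the 10 genes and raised 1. Among all genes 63.5% passed, 29.6% as lower and 33.9% as higher, and the median log2 change was -0.96 for the 10 genes and 0.09 for all. This comparison and that of 4 h feeding share the starved libraries, so their values stand side by side without a test between them. TXNRD1 fell from the starved values above to 119, 123 and 108 CPM, a log2 change of -1.52 (SE 0.08, edgeR adjusted p = 1.89e-16). SRXN1 was at 36.3, 35.6 and 30.5 CPM (-1.62, SE 0.11), ME1 at 14.6, 15.7 and 15.4 CPM (-1.69, SE 0.12) and TXN at 127, 124 and 118 CPM (-0.87, SE 0.08). None of these libraries came near the starved range.

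HMOX1 was at 7.52, 4.49 and 5.7 CPM with Torin1 in starved cells (-1.72, SE 0.22, edgeR adjusted p = 2.09e-07), and GCLM was at 25.7, 22.1 and 22.0 CPM (-1.05, SE 0.11, edgeR adjusted p = 2.78e-09). GCLC was the 1 gene that rose, to 45.2, 43.0 and 47.5 CPM, a log2 change of 0.66 (SE 0.10, edgeR adjusted p = 6.34e-07). The catalytic and regulatory subunits of 1 enzyme therefore moved apart in these libraries. NQO1, at 4.45, 5.69 and 4.3 CPM, was above all 3 starved libraries, but its log2 change of 0.36 (SE 0.25, edgeR adjusted p = 0.212) did not pass.

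KEAP1 did not pass in starved cells, at 85.1, 75.8 and 79.9 CPM with Torin1 (-0.02, SE 0.09, edgeR adjusted p = 0.849). NFE2L2, at 32.4, 28.9 and 32.5 CPM, was lower by a small step, -0.29 (SE 0.11, edgeR adjusted p = 0.0243). That call was lost with scaling by total counts (-0.15, adjusted p = 0.227), with no filter on low counts (adjusted p = 0.0584) and without starved replicate 1 (adjusted p = 0.0902), starved replicate 2 (adjusted p = 0.0907) or starved Torin1 replicate 2 (adjusted p = 0.106).

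In 1 h fed cells Torin1 lowered 6 genes and raised 1, beside 63.1% of all genes that passed, 29.9% as lower and 33.2% as higher. The median log2 change was -0.88 for the 10 genes and 0.06 for all, and libraries did not overlap for 7 of the 10, against 67.1% of all genes. The 6 were HMOX1 (-1.83, SE 0.23), ME1 (-1.82, SE 0.12), SRXN1 (-1.61, SE 0.11), TXNRD1 (-1.43, SE 0.08), GCLM (-1.0, SE 0.11) and TXN (-0.77, SE 0.08). Each was close to its value in starved cells. GCLC, at 44.6, 44.6 and 46.9 CPM with Torin1, was higher by 0.30 (SE 0.10, edgeR adjusted p = 0.00682). NFE2L2 (-0.07, SE 0.11) and KEAP1 (0.05, SE 0.09) did not pass. NQO1 did not pass either (0.53, SE 0.25, edgeR adjusted p = 0.0656), but it was called with total counts (0.64, adjusted p = 0.029) and without 1 h fed replicate 1 (0.83, adjusted p = 0.00818), the highest of 3 libraries at 5.42, 3.47 and 2.77 CPM, or without 1 h fed Torin1 replicate 3 (adjusted p = 0.0356).

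With Torin1 present, feeding moved none of the 10 genes past the edgeR threshold. For 4 h of feeding under Torin1, 0 of the 10 genes passed with edgeR, DESeq2 or limma-voom and 1 had an unadjusted p under 0.05, beside 1.8% of all genes that passed. Libraries did not overlap for 1 of the 10, against 21.3% of all genes. Changes lay between -0.19 and 0.30 on the log2 scale, with SEs of 0.08 to 0.24 and a median of -0.02. For 1 h of feeding under Torin1 the changes lay between -0.12 and 0.22, 0 genes passed with edgeR, 1 had an unadjusted p under 0.05, and 0.402% of all genes passed (0.274% as higher).

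Whether the effect of 4 h of feeding differed with Torin1 was tested as an interaction, the log2 change under Torin1 minus that without it. It passed for 5 of the 10 genes, beside 25.8% of all genes, 9.74% as positive and 16% as negative. The interaction was negative for GCLC (-1.42, SE 0.13, edgeR adjusted p = 1.69e-09), NQO1 (-1.24, SE 0.35, edgeR adjusted p = 0.00794), GCLM (-0.60, SE 0.16, edgeR adjusted p = 0.00534) and KEAP1 (-0.58, SE 0.12, edgeR adjusted p = 0.000558). These 4 genes rose with feeding without Torin1. With it their changes were -0.14 for GCLC, -0.19 for NQO1, 0.20 for GCLM and -0.01 for KEAP1, and none passed. The interaction was positive for TXNRD1 (0.55, SE 0.11, edgeR adjusted p = 0.000176), which fell with feeding without Torin1. With Torin1 its change was -0.02 and did not pass.

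For the other 5 genes a different response to feeding was not shown. HMOX1 had an interaction of -0.50 (SE 0.31, edgeR adjusted p = 0.256), which passed without starved replicate 1 (-0.83, adjusted p = 0.026), the highest starved library. NFE2L2 was at -0.37 (SE 0.15, edgeR adjusted p = 0.0805) and passed without 4 h fed replicate 3 (-0.44, adjusted p = 0.0432). SRXN1 was at 0.38 (SE 0.15, edgeR adjusted p = 0.0589) and passed with DESeq2 size factors (0.43, adjusted p = 0.0324), total counts, the Wald test, a minimum count of 30, and without 4 h fed replicate 2 (adjusted p = 0.0244) or 4 h fed Torin1 replicate 2 (adjusted p = 0.049). TXN (-0.19, SE 0.11) and ME1 (0.24, SE 0.17) did not pass.

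**Figure D3:**
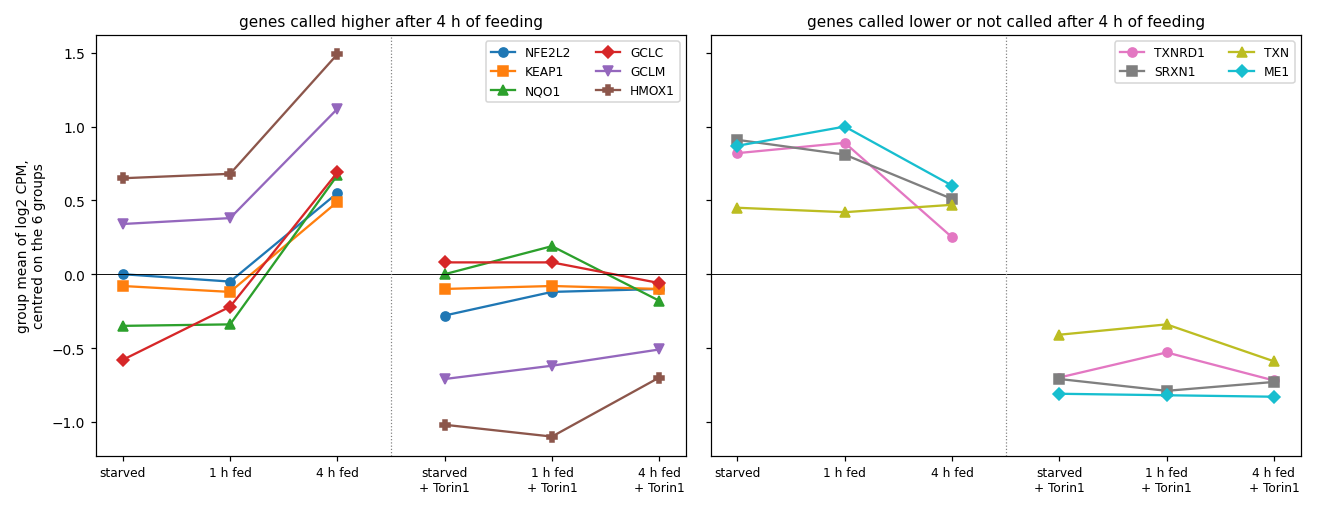
Mean log2 CPM of each of the 10 genes in the 6 groups, centred on the gene's own mean over the groups (y axis, log2 units). The left panel holds the 6 genes called higher after 4 h of feeding and the right panel the other 4. HMOX1 spans 2.59 log2 units and KEAP1 0.61, and the 4 h fed group is the highest of the 6 for every gene in the left panel, while TXN in the right panel is nearly level over the 3 states without Torin1.

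Over the 6 groups the 10 genes followed several patterns rather than 1. HMOX1 had the widest range of group means, 2.59 log2 units, and KEAP1 the narrowest, 0.61. By the root mean square difference of centred group means, NFE2L2 and KEAP1 were the closest pair (0.0914 log2 units), followed by SRXN1 and ME1 (0.104), NQO1 and GCLC (0.131) and TXNRD1 and SRXN1 (0.158). GCLC and HMOX1 were the farthest apart (0.999), and GCLC and GCLM, though partners in 1 enzyme, were 0.67 apart. For NFE2L2 and KEAP1 the libraries separated 4 h fed cells from the groups below, and for KEAP1 the other 5 groups overlapped in a chain. For GCLC the order was 4 h fed cells, then the 3 Torin1 groups and 1 h fed cells, whose libraries overlapped from each to the next, then starved cells. GCLM and HMOX1 fell into 3 levels, with 4 h fed cells highest, starved and 1 h fed cells overlapping in the middle, and the Torin1 groups lowest. NQO1 libraries overlapped at each step of the order.

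The thioredoxin genes and ME1 split mainly by Torin1. TXNRD1 in 1 h fed cells (351 ± 12.4 CPM, SD, n = 3) and starved cells (334 ± 17.6 CPM) overlapped, 4 h fed cells lay between (225 ± 11.5 CPM), and every Torin1 library was at 133 CPM or less. SRXN1 was at 106 ± 4.66 CPM in starved, 98.4 ± 0.865 CPM in 1 h fed and 79.9 ± 9.5 CPM in 4 h fed cells. The 1 h change did not pass, although its libraries did not overlap, as for 12.3% of all genes. Its 9 Torin1 libraries lay between 27.3 and 36.8 CPM. ME1 in the 3 states without Torin1 overlapped, between 34.4 and 57.7 CPM, and with Torin1 it was between 13.2 and 17.2 CPM. TXN was between 215 and 241 CPM in all 9 libraries without Torin1 and between 98.5 and 134 CPM in all 9 with it.

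For each gene, the other genes of most similar centred pattern over the 6 groups were sought among 11686 genes averaging 5 CPM or more. For NFE2L2 they were ORMDL3 (0.0537 log2 units), NAT10 (0.0559) and FBXO30 (0.059), and for KEAP1 they were CHSY1 (0.0275), HDHD3 (0.0279) and SUGT1 (0.0405). For SRXN1 the nearest was NSDHL (0.0296), an enzyme of cholesterol synthesis, for TXN it was NAA25 (0.0329), with the thioredoxin-like TXNDC9 next (0.0398), and for TXNRD1 it was RAB35 (0.0431). GCLC was nearest to GNA11 (0.0478), NQO1 to ARID5A (0.0543), ME1 to SAT1 (0.0559), GCLM to RBM14 (0.0842) and HMOX1 to FANCB (0.171). The distances are descriptions over 6 group means.

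Isoform use, the share of a gene's estimated counts carried by each transcript, was tested for 6 of the 10 genes. With 4 h of feeding it passed for 0 of 6 (edgeR's diffSpliceDGE, adjusted over 10700 genes, of which 3.29% passed), and limma's diffSplice called TXNRD1 (adjusted p = 0.014). With Torin1 in starved cells it passed for KEAP1 and TXNRD1, beside 15.1% of all genes. With Torin1 in 4 h fed cells it passed for TXNRD1 alone of the 6, beside 11.3%. SRXN1 and ME1 had a single isoform with counts, and NFE2L2-201 held 94.9% of NFE2L2 in starved cells.

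TXNRD1 was carried mainly by TXNRD1-205 and TXNRD1-214, whose annotated starts lie 199 bases apart. TXNRD1-214 made up 40.4%, 43.7% and 58.2% of TXNRD1 in starved cells and 22%, 16.9% and 19% with Torin1, with no overlap (edgeR diffSpliceDGE adjusted p = 1.1e-05). TXNRD1-205 went the opposite way, from 43.1%, 39.6% and 25.7% to 63.9%, 68% and 65.4%. Converted to levels without TMM scaling, TXNRD1-214 went from 154 ± 33.3 to 24.1 ± 3.28 CPM (SD, n = 3). TXNRD1-205 went from 117 ± 28.5 to 82.3 ± 7.78 CPM. The lower TXNRD1 total with Torin1 thus lay mostly in TXNRD1-214. In 4 h fed cells TXNRD1-214 was at 35.4%, 39.1% and 24.5% without and 25.6%, 21.1% and 24% with Torin1, groups that overlapped (edgeR diffSpliceDGE adjusted p = 0.0106). That call was lost without 4 h fed replicate 1 (adjusted p = 0.105) or 2 (0.0575), without 4 h fed Torin1 replicate 1 (0.105) or 3 (0.0622), and with replicate number as a block (0.106).

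KEAP1 kept its total in starved cells within the spread but not its isoform shares. KEAP1-202 made up 80.3%, 52.1% and 62.9% of KEAP1 in starved cells and 45.1%, 45.5% and 31.3% with Torin1, while KEAP1-201, which starts 845 bases away, went from 18.1%, 42.8% and 35.6% to 54.5%, 53.8% and 68.4% (edgeR diffSpliceDGE adjusted p = 0.0148). As levels without TMM scaling, KEAP1-201 went from 25.9 ± 11.4 to 50.6 ± 7.18 CPM and KEAP1-202 from 51.1 ± 8.13 to 34.9 ± 7.34 CPM (SD, n = 3). The starved libraries were spread widely, and the call was lost without starved replicate 1 (adjusted p = 0.0524) or starved Torin1 replicate 3 (adjusted p = 0.127). In 4 h fed cells the use of KEAP1 isoforms did not pass (adjusted p = 0.763). Both pairs rest on how RSEM divided reads between overlapping transcripts.

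**Figure D4:**
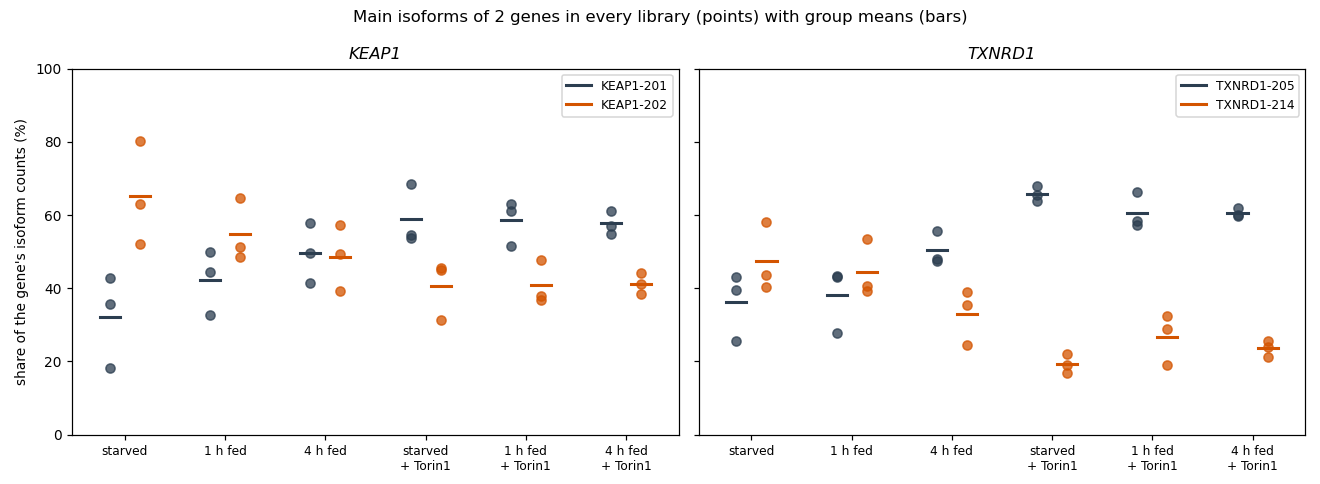
Share of estimated counts (percent, y axis) held by the 2 main isoforms of KEAP1 and of TXNRD1 in each of the 6 groups (x axis), with 1 point per library and a bar at the mean of 3. In starved cells TXNRD1-214 averaged 47.4% without and 19.3% with Torin1, and KEAP1-201 averaged 32.2% and 58.9%.

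The wider pathway was read from lists of genes beside the 10. Of 16 regulators and partners of NRF2, 5 rose and 7 fell with 4 h of feeding (median log2 change 0), beside 23.2% and 19.1% of all genes. SQSTM1, the p62 gene, rose by 0.50 (SE 0.08), BTRC, an E3 adaptor that acts on NRF2 independently of KEAP1, by 0.70 (SE 0.10) and the related factor NFE2L3 by 1.12 (SE 0.16). The MAF partners MAFG (-0.67, SE 0.10) and MAFK (-0.81, SE 0.14) and the related factor NFE2L1 (-0.50, SE 0.08) fell. With Torin1 in 4 h fed cells 0 of the 16 rose and 11 fell (median -0.46), beside 27.4% and 28.6% of all genes with TMM scaling. With scaling by total counts 1 rose and 9 fell, beside 5773 higher and 3453 lower of the 16414 genes tested. The CUL3 ligase gene (-1.22, SE 0.11), PGAM5, a KEAP1-binding phosphatase (-1.35, SE 0.09), and SQSTM1 (-0.61, SE 0.08) were among those that fell. CUL3 stood at 156 CPM in 4 h fed cells and 66.8 CPM with Torin1, beside 121 and 80 CPM for KEAP1, the adaptor it carries.

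Glutathione genes beyond GCLC and GCLM gave 1 rise and 6 falls of 17 tested with 4 h of feeding (median -0.11). Among all genes 23.2% rose and 19.1% fell, and the called share in either direction was close to the 42.3% of all genes. With Torin1 in 4 h fed cells there were 2 rises and 8 falls (median -0.22), beside 27.4% and 28.6% of all genes. With total counts these were 4 and 6. The called share in either direction was again close to the 56% of all genes. The cystine importer SLC7A11 went from 66 CPM in 4 h fed cells to 3.03 CPM with Torin1 (-4.44, SE 0.20), and its partner SLC3A2 fell by 1.61 on the log2 scale (SE 0.13). Glutathione synthetase, GSS, rose by 1.11 (SE 0.10). Of 12 other thioredoxin and peroxiredoxin genes, 7 fell and 3 rose with Torin1 in 4 h fed cells (median -0.51), or 7 and 4 with total counts. Among all genes 28.6% fell and 27.4% rose with TMM scaling. PRDX1, an abundant peroxiredoxin, was at 844 CPM and fell to 258 CPM (-1.71, SE 0.09), whereas TXNRD2, the mitochondrial counterpart of TXNRD1, rose by 1.36 (SE 0.15) and TXNIP, which binds and inhibits thioredoxin, by 1.66 (SE 0.15). The cytosolic and mitochondrial reductases thus moved in opposite directions.

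NADPH-supplying genes other than ME1 split evenly with Torin1 in 4 h fed cells, with 4 of 10 higher and 4 lower, or 5 and 4 with total counts. Beside this and the lists that follow, 27.4% of all genes were higher and 28.6% lower with TMM scaling, and the median was 0.02. PGLS, of the pentose phosphate pathway, rose by 1.42 (SE 0.10), and MTHFD2, of mitochondrial folate metabolism, was lower by a log2 change of -1.15 (SE 0.08). Of 17 further NRF2 targets tested, 4 rose and 6 fell (median -0.19), among them CBR1, a carbonyl reductase (-1.08, SE 0.10), FTL, the ferritin light chain (-0.79, SE 0.09), and EPHX1, an epoxide hydrolase (0.97, SE 0.13). This called share, with TMM scaling, was close to the 56% of all genes in this comparison. With total counts 4 rose and 4 fell. Of 6 antioxidant enzymes not listed as NRF2 targets, 3 fell, among them SOD2 (-0.94, SE 0.08) and HMOX2 (-1.02, SE 0.11), and 2 rose. For comparison, 10 of 11 genes of a list of the factor ATF4 and its targets fell with Torin1 in 4 h fed cells (median -1.81), beside 28.6% of all genes. That list shares SLC7A11 and CHAC1 with the glutathione list and SESN2 with the thioredoxin list.

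In starved cells the values share the starved libraries with those of feeding. There Torin1 lowered 11 and raised 3 of the 16 regulators, or 8 and 3 with total counts. Of the 12 thioredoxin genes it lowered 7 and raised 3, or 7 and 4 with total counts. Among all genes 29.6% were lower and 33.9% higher with TMM scaling. With total counts 4063 of the 16414 genes tested were lower and 6494 higher. MAFG fell by 1.59 (SE 0.10), CUL3 by 1.44 (SE 0.11) and PRDX1 by 1.84 (SE 0.09), and TXNRD2 rose by 2.34 (SE 0.17). Among the 16 regulators 7 had an interaction that passed, 4 positive and 3 negative, beside 9.74% and 16% of all genes. The positive ones included MAFF (1.68, SE 0.48), MAFG (0.82, SE 0.15) and NFE2L1 (0.45, SE 0.11). The negative ones were NFE2L3 (-1.50, SE 0.23), BTRC (-0.73, SE 0.14) and SQSTM1 (-0.38, SE 0.11).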

How the data were processed

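RNA was measured in 18 libraries of HEK-293E cells. Alignment used STAR in 2 passes, per the labels' protocols, and the submitters' processing notes also name RSEM and DESeq2. The labels name a worm genome build although the identifiers are human Ensembl identifiers, and the human build is not given in the sources used here. The authors deposited expected counts per gene (3.32% of values not whole, rounded here) and estimated counts per isoform.

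Genes were filtered with filterByExpr (minimum count 10), scaled by TMM and fitted as 6 group means over all libraries with edgeR 4.0.16 in R 4.3.3 (12 residual degrees of freedom, biological coefficient of variation 10.6%). P-values were adjusted by Benjamini-Hochberg over 16414 genes. Symbols matched 60604 identifiers. Isoforms were assigned to genes with GENCODE 29 (205950 of 227368, 98.9% of counts), and TPM used its transcript lengths. Isoform use was tested on 48663 isoforms. Within groups, replicate pairs differed beyond sampling noise (chi-square per degree of freedom at least 3.98).

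The test was tested on simulated data for Torin1 in 4 h fed cells over 15440 genes. It recovered 38.8% of 67 genes changed 1.5-fold, 79.1% of 67 changed 2-fold and 93.9% of 66 changed 4-fold, and called 17 unchanged genes. All other genes were set to their starved level in every group. In the data 56% of genes passed in this comparison. The adjustment of p-values depends on how many genes change, so these shares are not the power in the data.

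Genes named beside the 10 were at most the 3 called genes with the smallest p in each direction of a list, and the 3 of most similar pattern. The 10 genes and the lists were chosen with earlier results of these data known. Some marker genes are not reported here. Alternatives were DESeq2 1.42.0 size factors, total counts, DESeq2's Wald test, limma-voom (limma 3.58.1), other filters, the compared groups alone, replicate number as a block and leaving out each library.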

Additional observations from a re-analysis of the deposited data

Results flagged for a closer look

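In 5 of the 10 genes the effect of 4 h of feeding differed between cells with and without Torin1 by the interaction test. Among all genes tested 25.8% passed it, 9.74% as positive and 16% as negative. The difference, with Torin1 minus without, was -0.58 on the log2 scale for KEAP1, -1.24 for NQO1, -1.42 for GCLC, -0.60 for GCLM and 0.55 for TXNRD1.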

How the results depend on the processing

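Of 38 called changes of single genes, recomputed 562 times under the alternatives, 557 values kept direction and call, 5 lost the call (all for NFE2L2 with Torin1 in starved cells) and 0 changed sign. The uncalled changes counted here leave out 1 h of feeding, except for GCLC, and feeding under Torin1 at 1 h and at 4 h. Of the 13 that were counted, 6 were called in some alternative. Among the changes counted, values that changed sign were all uncalled. TXN with 4 h of feeding went to -0.03 with DESeq2 size factors or the Wald test, 0 with total counts and between -0.02 and 0.05 without 1 library. KEAP1 with Torin1 in starved cells went to 0.12 with total counts and between -0.08 and 0.03 without 1 library, and NFE2L2 with Torin1 in 1 h fed cells to 0.04 with total counts. The causes were not tested.

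Leaving out each library gave 0 to 1 of the 10 genes called for 1 h of feeding, 8 to 9 for 4 h of feeding, 7 to 8 for Torin1 in starved cells, 7 to 8 in 1 h fed cells, 10 to 10 in 4 h fed cells, 0 to 0 for feeding under Torin1 at 1 h and at 4 h, and 5 to 6 for the interaction. DESeq2's Wald test called 1 for 1 h of feeding. For isoform use these ranges were 0 to 0 for 4 h of feeding, 1 to 2 for Torin1 in starved cells and 0 to 1 in 4 h fed cells, limma's diffSplice gave 1 for feeding, and the replicate block gave 0 for Torin1 in 4 h fed cells.

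The labels give no sign that a replicate number pairs libraries, and it was not taken as a pairing. Deviations of same-numbered libraries correlated at -0.108 to 0.162 (median 0.0383, against -0.02 for other numbers), over 0.1 in 4 of 45 pairs. Of 18 libraries 11 were closest to their own number, a hint from the data and not the design. With replicate number as a block SRXN1 gained an interaction call (0.39, adjusted p = 0.0425).

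Counts over all genes moved by more than 1.5 times where few genes passed. For 1 h of feeding, 106 genes became 170 with the Wald test, 164 with no filter, 39 with only the groups compared, and 55 to 248 without 1 library. For 1 h of feeding under Torin1, 66 became 120, 150 and 208 under these 3 settings, 110 with the replicate block, and 22 to 45 without 1 library. For 4 h of feeding under Torin1, 296 became 471 with the Wald test, 640 with only the groups compared, and 134 to 189 without 1 library. At 60 counts per library on average, NQO1 had the largest SEs, up to 0.35.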
